A study of Homo sapiens with 6 samples.

Results

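A set of 10 growth factor receptor and ligand genes of colorectal cancer cells was examined after silencing of the long non-coding RNA AC010789.1: the receptor tyrosine kinases MET, MST1R, EGFR, ERBB2, ERBB3, IGF1R, INSR and AXL, and the EGFR ligands AREG and EREG. They were chosen by name, and every row of the count table that carries one of these gene symbols in the GENCODE v29 annotation was taken. These were 88 of the 98803 annotated transcripts of the table, and their sums gave 10 of 18768 genes. Of the 115 transcripts annotated for these genes, the other ones had no counts analysed here.

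A receptor tyrosine kinase typically spans the cell membrane, binds a growth factor outside the cell and works in a pair of receptors. It then phosphorylates itself and docking proteins inside, which feeds the RAS-MAPK and PI3K-AKT pathways. EGFR, ERBB2 and ERBB3 belong to the ERBB family, and signalling through EGFR is a drug target in colorectal cancer. MET, the receptor of hepatocyte growth factor, and its relative MST1R (RON), the receptor of macrophage-stimulating protein, are known for driving cell scattering and invasive growth.

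HCT116, an established human colorectal cancer cell line, received either a negative control siRNA (group siRNA-NC, the control libraries) or one directed at AC010789.1 (group si-AC010789.1, the silenced libraries), and total RNA of 3 replicates per group was sequenced. Both groups were thus transfected, so untransfected cells are not part of the comparison. The study asked which mRNAs change when AC010789.1 is silenced, in cells in which it was proposed to bind miR-432-3p. The labels do not say whether the replicates were separate cultures, and the study speaks of biological repeats made with cells of different generations. The p-values measure the spread between these samples only.

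Libraries held from 11277222 to 13443866 counts, and 3 counts correspond to 0.223 to 0.266 CPM (counts scaled to a common library size). The level of AC010789.1 itself was not analysed here, so the labels were not checked against its silencing. The study reports that it verified the knockdown in the sequenced samples. The epithelial keratins KRT8 and KRT18 were abundant, from 443 to 849 CPM and from 351 to 535 CPM. In contrast, EPCAM, an epithelial surface protein, lay between 3.1 and 5.58 CPM, the intestinal cadherin CDH17 did not exceed 0.174 CPM, and KRT19 and VIL1 had no counts analysed here. COL1A1, a collagen of fibroblasts, was at 37.7 to 48 CPM. The colorectal epithelial markers thus only partly fit the labelled cell line, in both groups, and the identity of the line was not tested. None of the 8 genes listed for other cell types except COL1A1 had counts analysed here.

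Levels of different genes were compared per length, as TPM, the count of each transcript divided by its annotated length and scaled to a common total per library, which depends on how the authors divided reads among transcripts. EGFR was the most abundant of the 10, with 174 ± 7.66 TPM in the controls and 164 ± 1.14 TPM in the silenced libraries (SD, n = 3). MET followed with 146 ± 14.4 and 115 ± 10.1 TPM, and IGF1R with 125 ± 30.01 and 119 ± 29.8 TPM. The lowest EGFR library, at 162.4 TPM, was just above the highest MET library, at 162.36 TPM, while the ranges of MET and IGF1R overlapped. MST1R reached 65.6 ± 13.6 and 70.7 ± 3.47 TPM and AXL 55.6 ± 4.15 and 67.7 ± 6.06 TPM, and their ranges overlapped too. ERBB2 lay below them, at 33.2 ± 6.07 and 39.99 ± 7.97 TPM. ERBB3 (8.79 to 14.9 TPM over the 6 libraries), INSR (10.0 to 12.7 TPM) and AREG (5.34 to 11.3 TPM) could not be ordered, since each range overlapped the next. EREG was the lowest, between 0 and 1.19 TPM.

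**Figure D1:**
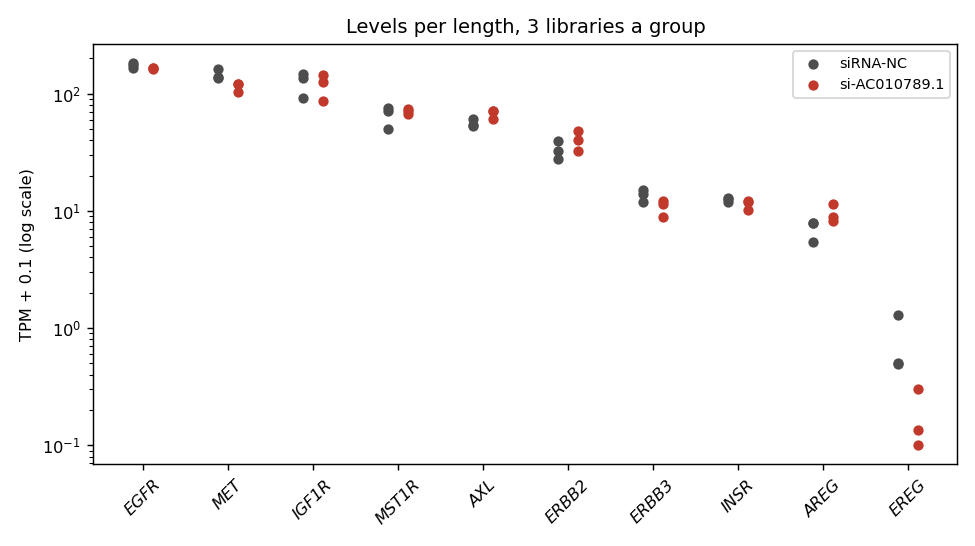
Level of each gene per length (TPM plus 0.1, log scale) in the 6 libraries, ordered by the mean, with siRNA-NC in grey and si-AC010789.1 in red. EGFR, MET and IGF1R form the upper end at 86.0 to 181.9 TPM, and EREG lies below all others.

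Within a gene, the groups were compared on CPM of the gene sum, with the libraries given from replicate 1 to 3 in each group. MET was lower in the silenced libraries, ERBB3 was lower and AXL and AREG were higher in each library of one group than in each of the other, and the groups overlapped for EGFR, ERBB2, MST1R, IGF1R, INSR and EREG. In TPM, ERBB3 overlapped instead, EGFR and EREG (of few counts) lay apart with the silenced libraries lower, and the other genes were as in CPM. No share of all genes is given for TPM, so nothing is read from that difference. Only MET passed the test. All genes except EREG passed the filter on low counts, and 1 of these 9 had an adjusted p-value below 0.05 (edgeR quasi-likelihood test, Benjamini-Hochberg over all 13764 genes tested), beside 0.944% of all genes tested in either direction and 0.676% with a fall. The study set its criteria, a log2 fold change beyond 1 in size with an unadjusted p-value below 0.05, on Cuffdiff results. Applied here to the edgeR results of the gene sums, they were met by 107 genes and by 0 of the 9. A single gene does not set the list apart from that background. In CPM and without overlap between the groups, 2 of the 9 were lower and 2 higher in the silenced libraries, beside 12.9% and 12.2% of all genes tested. The median log2 fold change of the 9 was 0.01, and that of all genes tested was -0.00059.

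**Figure D2:**
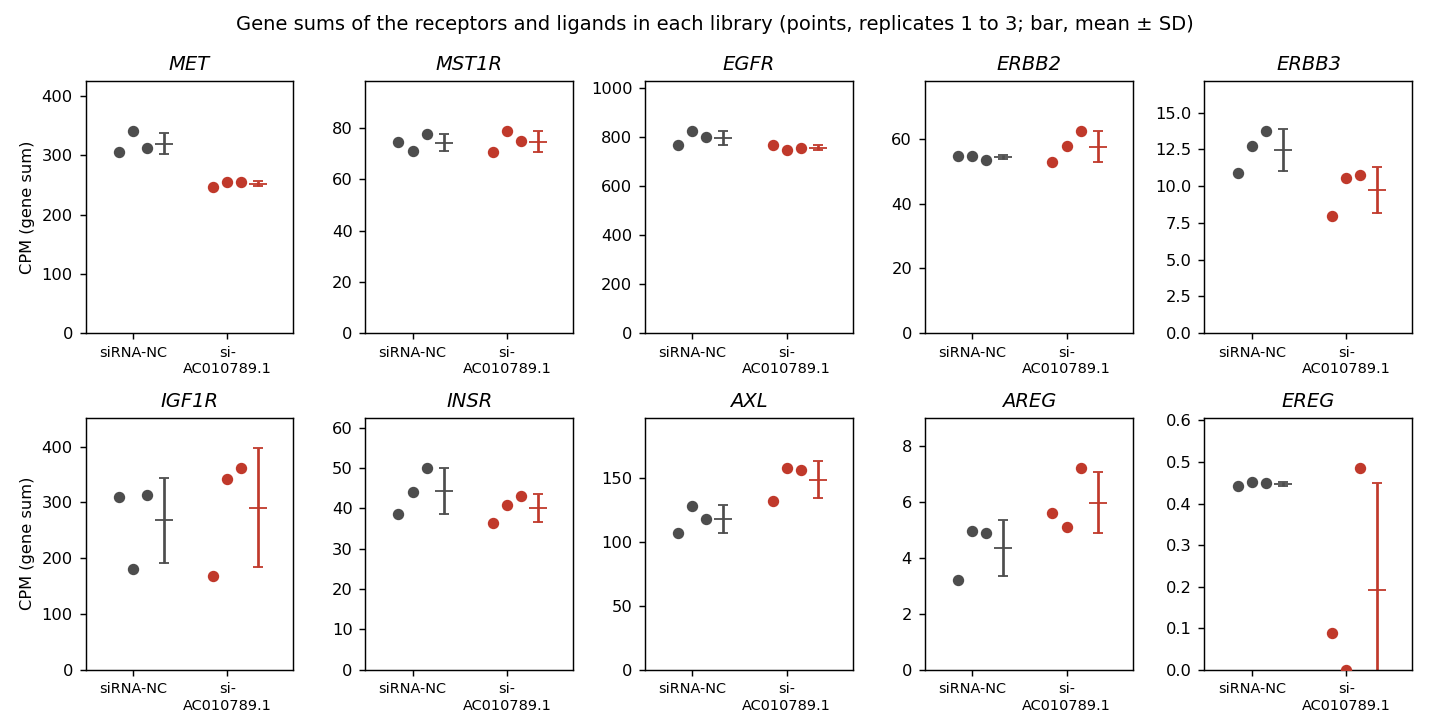
CPM of the gene sum in each library (points, replicates 1 to 3 from left to right) with the group mean ± SD (bar, n = 3), each panel with its own axis from 0. All 3 MET libraries of si-AC010789.1 lie at 247 to 254 CPM, below the siRNA-NC libraries at 306 to 340 CPM, and IGF1R has 1 low library in each group.

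MET (ENSG00000105976.14, chromosome 7 of GRCh38, 116672390 to 116798386, plus strand) was at 306, 340 and 313 CPM in the controls and at 247, 254 and 254 CPM in the silenced libraries. Every silenced library was thus below every control, and the silenced libraries lay closer together than the controls. The mean fell by 21.2%, from 320 ± 18.3 to 252 ± 4.25 CPM (SD, n = 3), a log2 fold change of -0.34 with a standard error of 0.05 and a 95% interval from -0.47 to -0.22. Its adjusted p-value was 0.0469 (edgeR quasi-likelihood test, Benjamini-Hochberg). DESeq2 gave an adjusted p-value of 0.000239, with 5.18% of genes called by that tool. The call was close to the threshold: with 1 library left out, whichever it was, the log2 fold change lay between -0.37 and -0.30 and the adjusted p-value between 0.101 and 0.151. It was also lost without the filter (adjusted p = 0.0784, edgeR) and when only protein-coding transcripts were summed (adjusted p = 0.0796, edgeR). All 6 counted MET transcripts are annotated as protein-coding, so in that setting the MET counts were unchanged and only the fit around them differed. An exact two-sided permutation test of 3 against 3 cannot give less than p = 0.1, which is the value for MET and for each of the 3 other genes with separate groups.

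Of the main MET transcripts, MET-202 was lower in every silenced library and MET-201 overlapped between groups. MET-202, the longer one, held 2487, 3070 and 3072 counts in the controls and 2230, 2203 and 2108 in the silenced libraries. Its groups did not overlap, and the change on the log2 scale was -0.35 with a standard error of 0.08 and an adjusted p-value of 0.517 over all transcripts (edgeR quasi-likelihood test). For MET-201 the counts were 571, 828 and 581 against 358, 579 and 595, which overlap, with a log2 fold change of -0.33 (standard error 0.23). MET-202 made up 71.2 ± 2.90% of the MET counts in the controls and 71.7 ± 6.26% in the silenced libraries (SD, n = 3). The remaining tested forms, MET-203, MET-204 and MET-206, had log2 fold changes from -0.54 to -0.34 with overlapping groups. The 2 main forms differ in exon 10, which begins 54 bases earlier in MET-201, and in the 3′ end, which runs on in MET-202, so that counts of the 2 do not show the splice choice alone. The junction of exons 9 and 10 is printed for both from GRCh38 (plus strand), with the bases after the junction in capitals.
MET-201: caaatcttttattagTACTTGGTGGAAAGA
MET-202: caaatcttttattagTGGTGGGAGCACAAT
In MET-201 exon 10 spans chr7:116759337-116759490 and in MET-202 chr7:116759391-116759490.

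**Figure D3:**
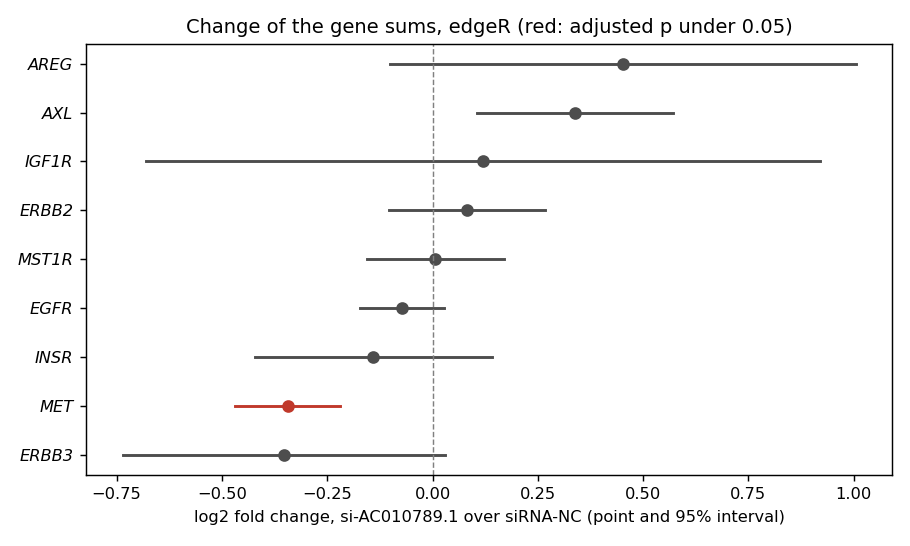
Log2 fold change of the gene sum (si-AC010789.1 over siRNA-NC, point) with its 95% interval (line) for the 9 tested genes, in red where the adjusted p-value of edgeR was under 0.05. MET (-0.34) is red, the interval of AXL (0.10 to 0.57) also leaves out 0, and that of IGF1R (-0.68 to 0.92) is the widest.

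MST1R (ENSG00000164078.12, chromosome 3, 49887002 to 49903873, minus strand) did not differ detectably as a gene but held a transcript counted in the silenced libraries alone. Its sum was 74.5, 70.9 and 77.7 CPM in the controls and 70.6, 78.7 and 74.8 CPM in the silenced libraries. Its log2 fold change was 0.01, with a 95% interval from -0.16 to 0.17 and an adjusted p-value of 0.970 (edgeR quasi-likelihood test).

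MST1R-203 (ENST00000411578), annotated as a target of nonsense-mediated decay, had 0 counts in all 3 siRNA-NC libraries and 24, 57 and 96 counts in the silenced libraries. Counts were thus assigned to the form in every silenced library and in no control. A count of 0 does not show that the form was absent, since how shared reads were assigned is not given. Against a floor of 3 counts per control library its mean was at least 20.1-fold higher. That bound was 13.9-fold without si-AC010789.1 replicate 3 and 25.8-fold without replicate 1. The form took a mean of 6.38% of the MST1R counts of the silenced libraries. Among single transcripts, 0 of the 41 tested transcripts of these 10 genes had an adjusted p-value under 0.05 by edgeR, where 0.0135% of 44297 did, and 2 had an unadjusted p-value under 0.05. MST1R-203 was 1 of these 2 (adjusted p = 0.354, edgeR), with MET-202 the other. The share of all transcripts with such an unadjusted p-value is not given here, so nothing is read from that count. DESeq2 called 1 transcript of these genes, MST1R-203, with an adjusted p-value of 2.18e-05, beside 0.955% of the transcripts it tested. As the form is at 0 in every control, it entered the tests only through the silenced libraries, where it is high, so that these calls are no independent support for a difference. Of the 41 transcripts, 4 were lower in every silenced library than in any control (MET-202, EGFR-201, ERBB3-213 and IGF1R-206) and 4 were higher (MST1R-203, MST1R-206, AXL-201 and AREG-201), while the shares over all tested transcripts were 6.73% and 7.31%.

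The split of a gene sum over its transcripts was tested for the 8 genes with at least 2 tested transcripts. By the F test of edgeR none of the 8 had an adjusted p-value under 0.05, beside 1.9% of 9046 genes, and 1 had an unadjusted p-value under 0.05. That gene was MST1R, with an adjusted p-value of 0.0559. The share of all genes with such an unadjusted p-value in this test is not given here, so nothing is read from that count. The Simes form of the test, which reacts to single transcripts, gave MST1R an adjusted p-value of 0.00166 and called no other of the 8, with 1.2% of the 9046 genes called. This test includes MST1R-203, and so the same limit holds for it. This call was lost when control replicate 1 (adjusted p = 0.191), control replicate 2 (0.182) or silenced replicate 3 (0.0720) was left out, all by edgeR. The F test passed only without si-AC010789.1 replicate 2 (adjusted p = 0.018). For the other 7 genes the adjusted p-values of the F test were 0.780 and above.

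The larger MST1R transcripts did not separate the groups. MST1R-202, the most abundant, held 360, 395 and 726 counts in the controls and 346, 473 and 323 in the silenced libraries. MST1R-204 had 123, 132 and 0 counts against 111, 126 and 114. In siRNA-NC replicate 3 MST1R-202 was thus at its highest and MST1R-204 at 0, in the same library in which MST1R-201 had 51 counts, where the other controls had 2 and 1. MST1R-208, a retained intron, had 204, 241 and 159 counts against 184, 189 and 248, and MST1R-215 had 61, 71 and 19 against 61, 0 and 46. Of the small forms, MST1R-206, another retained intron, had 11, 12 and 9 counts against 14, 19 and 14, apart when scaled for depth but with an adjusted p-value of 0.923 (edgeR). MST1R-207 and MST1R-209 had from 10 to 32 counts a library with overlapping groups. MST1R-214 had 7, 9 and 0 against 15, 25 and 9 counts and did not pass the filter.

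The junctions that define these forms, after exon 10 for MST1R-202 and after exon 12 for MST1R-203, are shown as the internal differences between them. MST1R-201 is the full-length form, MST1R-202 skips its exon 11 of 147 bases, an exon whose loss is known to give a form of RON that stays inside the cell, and MST1R-203 skips its exon 13 of 102 bases and starts the next exon 23 bases early. Bases of the exon after the junction are in capitals in the first 3 lines, and in the fourth the 23 added bases are.
MST1R-201: gccattaagtttgagTATATTGGGCTGGGC
MST1R-202: gccattaagtttgagGTCTGCGTAGATGGT
MST1R-201, after exon 12: ggaggaagcagctagTTCTTCCTCCCAACC
MST1R-203, after exon 12: ctagCTCCTCATTCCCTCTCCCCACAGcac
All are read 5′ to 3′ on the minus strand of chromosome 3. Exon 11 of MST1R-201 spans chr3:49895961-49896107, its exon 13 chr3:49895447-49895548, and the extended exon of MST1R-203 chr3:49895167-49895396. The forms also differ at their outer ends: the first exon of MST1R-203 is 229 bases longer than that of MST1R-201, and the last exon of MST1R-202 is 163 bases shorter, so the counts do not show the splice choices alone. How the authors assigned reads that several transcripts share is not given in the sources used here, and a form of low count rests on few reads.

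**Figure D4:**
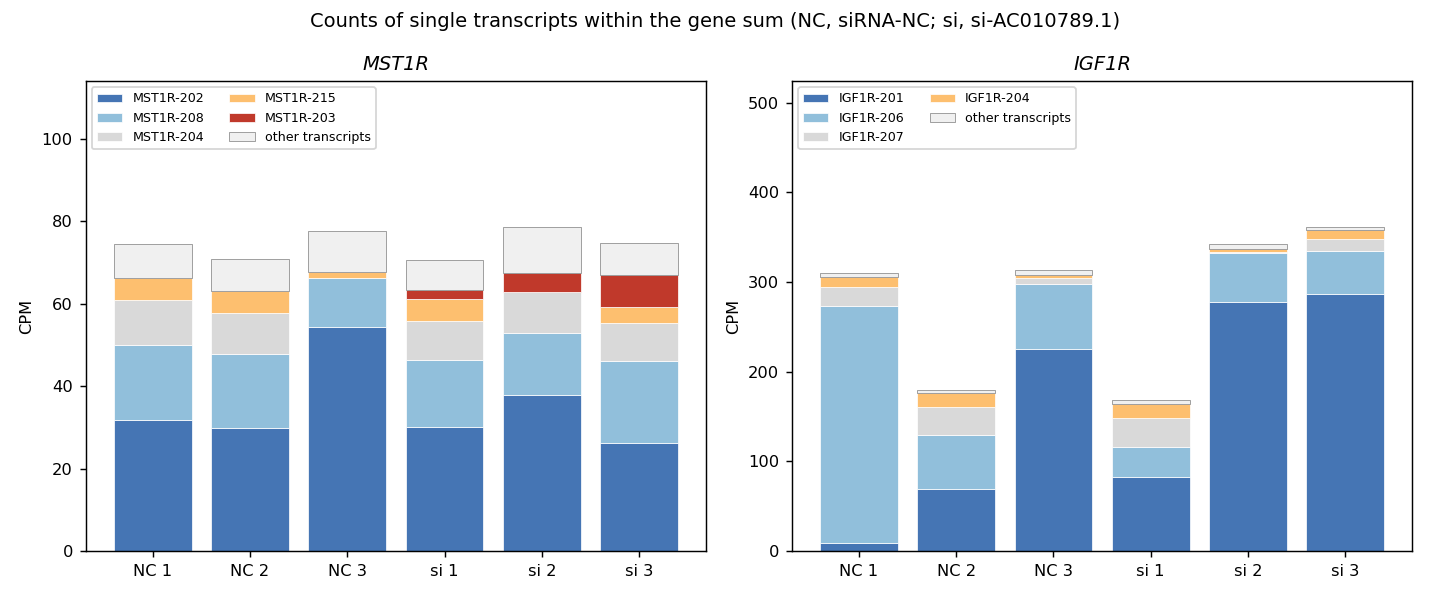
CPM of single transcripts stacked to the gene sum in each library, for MST1R (left) and IGF1R (right). MST1R-203 (red) appears in the 3 si-AC010789.1 libraries only, and the IGF1R bar of siRNA-NC replicate 1 is mostly IGF1R-206 while IGF1R-201 fills most of that of si-AC010789.1 replicates 2 and 3.

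EGFR (ENSG00000146648.17, chromosome 7, 55019021 to 55211628, plus strand), the receptor of EGF, TGFA, AREG and EREG, was measured most precisely. It reached 768, 824 and 800 CPM in the controls and 770, 748 and 755 CPM in the silenced libraries. In CPM the groups overlapped by a single library, siRNA-NC replicate 1. Per length they lay apart, at 167, 182 and 175 TPM in the controls and 164, 165 and 162 TPM in the silenced libraries. A log2 fold change of -0.07 was found, with a 95% interval from -0.17 to 0.03 and an adjusted p-value of 0.426 (edgeR quasi-likelihood test). EGFR-201 accounted for a mean of 99% of the EGFR counts in each group. It had 8602, 10825 and 10575 counts in the controls against 8714, 9292 and 9257, which separate by little when scaled for depth (adjusted p = 0.913, edgeR). EGFR-203, EGFR-207 and EGFR-208 had from 1 to 61 counts a library and overlapped between groups.

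ERBB2 (ENSG00000141736.13, chromosome 17, 39687914 to 39730426, plus strand), the ERBB receptor without a known ligand, was at 54.9, 54.9 and 53.7 CPM in the controls and at 52.8, 57.8 and 62.4 CPM in the silenced libraries. Its log2 fold change was 0.08 (95% interval -0.10 to 0.27), and the groups overlapped. The sum hid a large spread of its transcripts between libraries. Its coefficient of variation over the 6 libraries was 6.27%, while the median over 9 transcripts with a mean of at least 1 CPM was 125%. ERBB2-202, for example, had 357, 116 and 339 counts against 270, 35 and 432, and ERBB2-201 had 34, 259 and 105 against 129, 234 and 211. ERBB2-210 had no counts in the controls and 64, 74 and 0 in the silenced libraries. The other forms at that level, ERBB2-203, ERBB2-205, ERBB2-206, ERBB2-214, ERBB2-218 and ERBB2-222, ranged from 0 to 146 counts a library, with overlapping groups. The 2 genes PGAP3 and MIEN1 overlap ERBB2 on the other strand and have counts, and whether strand was used in counting is not given in the sources used here, so that reads in the overlap cannot be told apart.

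ERBB3 (ENSG00000065361.15, chromosome 12, 56076799 to 56103505, plus strand), the neuregulin receptor with a weak kinase of its own, was at 10.9, 12.7 and 13.7 CPM in the controls and at 7.94, 10.5 and 10.8 CPM in the silenced libraries. The groups lay apart by a narrow gap, 10.8 against 10.9 CPM. Per length they overlapped, at 11.89, 13.7 and 14.9 TPM in the controls and 11.3, 11.94 and 8.79 TPM in the silenced libraries. The log2 fold change of -0.35 was as large as that of MET, but its standard error was 0.16 and its 95% interval ran from -0.74 to 0.03 (adjusted p = 0.326, edgeR quasi-likelihood test). ERBB3-201, the longest of its tested forms, had 61, 48 and 50 counts against 25, 38 and 111. ERBB3-213 had 28, 23 and 64 counts in the controls and 18, 21 and 2 in the silenced libraries, which do not overlap, with an adjusted p-value of 0.940 (edgeR). ERBB3-205 and ERBB3-221 had from 0 to 32 counts a library and overlapped between groups.

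AREG (ENSG00000109321.10, chromosome 4, 74445134 to 74455009, plus strand), amphiregulin, was at 3.19, 4.97 and 4.87 CPM in the controls and at 5.58, 5.11 and 7.20 CPM in the silenced libraries. These levels came from 36, 66 and 65 counts and from 64, 64 and 89 counts. Each silenced library was above each control, but the log2 fold change of 0.45 had a standard error of 0.23 and an adjusted p-value of 0.377 (edgeR quasi-likelihood test). AREG-201 made up 94.3% of the counts in the controls and 98.6% in the silenced libraries (means of 3). EREG (ENSG00000124882.3, chromosome 4, 74365143 to 74388751, plus strand), epiregulin, had 5, 6 and 6 counts in the controls and 1, 0 and 6 in the silenced libraries. It was too low to be tested, and the 6 counts of si-AC010789.1 replicate 3 are as many as in controls 2 and 3. EREG-202, a processed transcript, had 4, 1 and 1 counts in the controls and 0 in all silenced libraries, near the floor of 3 counts.

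IGF1R (ENSG00000140443.14, chromosome 15, 98648539 to 98964530, plus strand), the receptor of the insulin-like growth factors, was the most variable of the abundant receptors. It was at 310, 180 and 313 CPM in the controls and at 168, 343 and 362 CPM in the silenced libraries. In CPM, a single library of each group, control replicate 2 and silenced replicate 1, lay far below the others. The highest control was 1.74 times the lowest and the highest silenced library 2.15 times the lowest. Per length, these libraries were instead the highest of their groups. IGF1R was at 137, 148 and 91.2 TPM in the controls and at 145, 86.0 and 126 TPM in the silenced libraries. Silenced over control, the log2 fold change was 0.12, its standard error 0.33 and its 95% interval -0.68 to 0.92 (adjusted p = 0.893, edgeR quasi-likelihood test). Its sign turned when control replicate 2 was left out (-0.10), and when silenced replicate 2 (-0.01) or 3 (-0.07) was.

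Which of the main IGF1R transcripts held more counts differed between the controls: IGF1R-206 did in replicate 1 and IGF1R-201 in the others, while IGF1R-201 did in every silenced library. IGF1R-201 had 101, 916 and 3006 counts in the controls and 946, 3486 and 3543 in the silenced libraries. IGF1R-206 had 2981, 799 and 961 counts against 377, 686 and 595. Each silenced library was below each control for IGF1R-206, with a log2 fold change of -1.55, a standard error of 0.63 and an adjusted p-value of 0.874 (edgeR quasi-likelihood test). Without siRNA-NC replicate 1, where IGF1R-206 was highest, the log2 fold change was -0.57. Summed, the pair had 3082, 1715 and 3967 counts against 1323, 4172 and 4138. The libraries of low IGF1R CPM were thus low in this pair as well. The 2 short forms IGF1R-204 and IGF1R-207 together had 371, 627 and 145 counts against 553, 54 and 286, and were highest in the 2 libraries in which the long pair was lowest. IGF1R-210, a retained intron, had from 7 to 23 counts a library.

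The long IGF1R forms differ by 3 bases at the start of exon 14, by 73 bases at the start of the first exon and by 1 base at the end of the last. The junction of exons 13 and 14 is printed as the difference inside the shared transcript body, with the 3 extra bases of IGF1R-201 in capitals and, in IGF1R-206, the bases after the junction.
IGF1R-201: atgtccaggccaaaaCAGgatatgaaaact
IGF1R-206: atgtccaggccaaaaGATATGAAAACTTCA
Exon 14 spans chr15:98929558-98929660 in IGF1R-201 and chr15:98929561-98929660 in IGF1R-206 (GRCh38, plus strand).

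INSR (ENSG00000171105.13, chromosome 19, 7112255 to 7294034, minus strand), the insulin receptor, was at 38.6, 44.1 and 50.0 CPM in the controls and at 36.4, 40.9 and 43.0 CPM in the silenced libraries. The groups overlapped, with a log2 fold change of -0.14 and a 95% interval from -0.42 to 0.14 (adjusted p = 0.597, edgeR quasi-likelihood test). INSR-202 held 91.6% of the INSR counts in the controls and 90.1% in the silenced libraries, and INSR-201 held 3.96% and 4.09% (means of 3). INSR-205, a retained intron, had from 7 to 37 counts a library. INSR-202 skips exon 11, of 36 bases, and is known as insulin receptor isoform A, which also binds IGF2, while isoform B keeps the exon. INSR-202 also has the longer 3′ end (8954 against 4721 nt in all), and reads of that end count for it alone. The junction after exon 10 is printed for both from the minus strand of chromosome 19, with the following exon in capitals.
INSR-201: ggttttcgtccccagAAAAACCTCTTCAGG
INSR-202: ggttttcgtccccagGCCATCTCGGAAACG
Exon 11 of INSR-201 spans chr19:7150497-7150532.

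AXL (ENSG00000167601.11, chromosome 19, 41219203 to 41261766, plus strand), the receptor of GAS6 that is known from mesenchymal and drug-resistant cancer cells, was at 107, 128 and 118 CPM in the controls and at 132, 158 and 156 CPM in the silenced libraries. Every silenced library was above every control, though si-AC010789.1 replicate 1 exceeded siRNA-NC replicate 2 by little. Its means were 118 ± 10.8 and 149 ± 14.4 CPM (SD, n = 3). The log2 fold change of 0.34 (standard error 0.10) was of the size of that of MET with the opposite sign, its 95% interval ran from 0.10 to 0.57, and its adjusted p-value was 0.163 (edgeR quasi-likelihood test), or 0.0731 with DESeq2. The main form AXL-201 had 819, 1300 and 1262 counts against 1178, 1628 and 1522, which do not overlap when scaled for depth, with a log2 fold change of 0.41 and an adjusted p-value of 0.870 (edgeR). AXL-202 had 137, 260 and 306 counts against 309, 271 and 403. AXL-203 had 241, 135 and 0 counts against 1, 56 and 2, and AXL-205, a retained intron, from 6 to 26 counts a library. AXL-201 keeps an exon 10 of 27 bases that AXL-202 skips, and has the longer 3′ end. The exon is printed whole, and for AXL-202 the junction without it, with the following exon in capitals.
AXL-201: GGCAAGCACAGCCAGTCCACCAGCTGG
AXL-202: aggcctggcgcccagTGAAGGAACCTTCAA
Exon 10 of AXL-201 spans chr19:41239694-41239720 (GRCh38, plus strand).

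The other genes of these pathways were read from lists of ligands, receptors, ligand-releasing proteases, adaptors and inhibitors. Of 16 further ligands, 11 had counts and 8 were tested, of which 0 had an adjusted p-value under 0.05 by edgeR. Of these 8, 1, NRG1, had an unadjusted p-value under 0.05 by edgeR. Nothing is read from that count, as the share of all genes with such a value is not given here. DESeq2 called NRG1, beside 5.18% of the genes it tested. NRG1, neuregulin 1, the ligand of ERBB3, was at 14.8, 11.9 and 14.3 CPM in the controls and at 8.81, 9.495 and 8.33 CPM in the silenced libraries. The groups did not overlap, with a log2 fold change of -0.62, a standard error of 0.13 and an adjusted p-value of 0.0878 (edgeR quasi-likelihood test), or 0.0312 with DESeq2. Its direction was that of ERBB3, whose change did not pass the test either. The EGFR ligands TGFA (3.19 to 5.05 CPM over the 6 libraries) and HBEGF (9.30 to 12.4 CPM), the neuregulins NRG2 (1.62 to 3.10 CPM) and NRG4 (8.46 to 14.99 CPM), and the AXL ligand GAS6 (13.96 to 19.1 CPM) overlapped between groups. So did PROS1 (20.5 to 41.7 CPM), a further ligand of the AXL family. MST1, the ligand of MST1R, lay between 0.239 and 1.06 CPM with overlapping groups, and its counts are uncertain because near-identical copies of the gene exist. EGF, IGF1 and IGF2 were too low to be tested, and HGF, the ligand of MET, had no counts analysed here.

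Of 34 other receptor tyrosine kinases 14 were tested and 0 had an adjusted p-value under 0.05 by edgeR or DESeq2, and 0 an unadjusted one by edgeR. Their median log2 fold change was 0.08. LMTK2 (134 to 153 CPM), RYK (96.3 to 150 CPM) and TYRO3 (52.3 to 71.7 CPM), a relative of AXL, were the most abundant, and the groups overlapped for all 3. ERBB4 and INSRR, relatives of ERBB3 and INSR, were too low to be tested. The 9 tested genes of ligand release and receptor maturation included 0 with an adjusted p-value under 0.05 by edgeR or DESeq2 and 1 with an unadjusted p-value under 0.05 by edgeR, RHBDF2. Nothing is read from that 1 gene either, as the share of all genes is not given for unadjusted p-values. FURIN, which cuts the IGF1R and INSR precursors, was at 292 to 348 CPM, ADAM10, which sheds EGFR ligands, at 136 to 172 CPM and the protease inhibitor TIMP3 at 125 to 154 CPM.

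Among 22 tested adaptors and docking proteins, 0 had an adjusted p-value under 0.05 by edgeR and 7 had an unadjusted p-value under 0.05. The share of all genes with such an unadjusted p-value is not given here, so nothing about the list is read from that count. DESeq2 called 1 higher (PTPN11) and 1 lower (FRS2), beside 5.18% of the genes it tested. The median log2 fold change of the list was 0.01. PTPN11, the phosphatase SHP2 that binds GAB1 and other docking proteins, was at 316, 343 and 332 CPM in the controls and at 384, 383 and 390 CPM in the silenced libraries. Its groups lay clearly apart, with a log2 fold change of 0.22 and an adjusted p-value of 0.0824 (edgeR quasi-likelihood test), or 0.0114 with DESeq2. IRS2, an insulin receptor substrate, at 178 to 210 CPM, and CRKL at 146 to 154 CPM overlapped between groups.

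Of 23 tested genes of receptor turnover and inhibition, 1 rose and 1 fell by edgeR, beside 0.944% of all genes tested in either direction. DESeq2 called 1 higher and 2 lower, CBL being the further one, beside 5.18% of the genes it tested. PTPRJ, a receptor-type phosphatase known to act on MET and EGFR, was at 150, 154 and 158 CPM in the controls and at 261, 269 and 245 CPM in the silenced libraries. It rose by 0.74 ± 0.05 (standard error) on the log2 scale, with an adjusted p-value of 0.00693 (edgeR quasi-likelihood test), and the call held with each library left out, at adjusted p-values from 0.0277 to 0.0431. EPN1, epsin 1, an endocytic adaptor for ubiquitinated receptors, was at 84.5, 87.7 and 84.2 CPM in the controls and at 64.4, 56.5 and 60.7 CPM in the silenced libraries. It fell by 0.50 on the log2 scale (adjusted p = 0.0374, edgeR), a call that was lost with any library left out (adjusted p from 0.0670 to 0.129). Among 6 tested genes of IGF binding and clearance 1 rose by edgeR, and by DESeq2, beside the same shares of 0.944% and 5.18%. Counts this small set neither list apart from those shares. IGFBP4, a secreted protein that binds insulin-like growth factors, went from 166, 180 and 170 CPM to 258, 260 and 262 CPM, a log2 fold change of 0.60 (adjusted p = 0.0102, edgeR), with the call lost without si-AC010789.1 replicate 3 (adjusted p = 0.0636). The medians of the last 2 lists were -0.01 and 0.01.

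**Figure D5:**
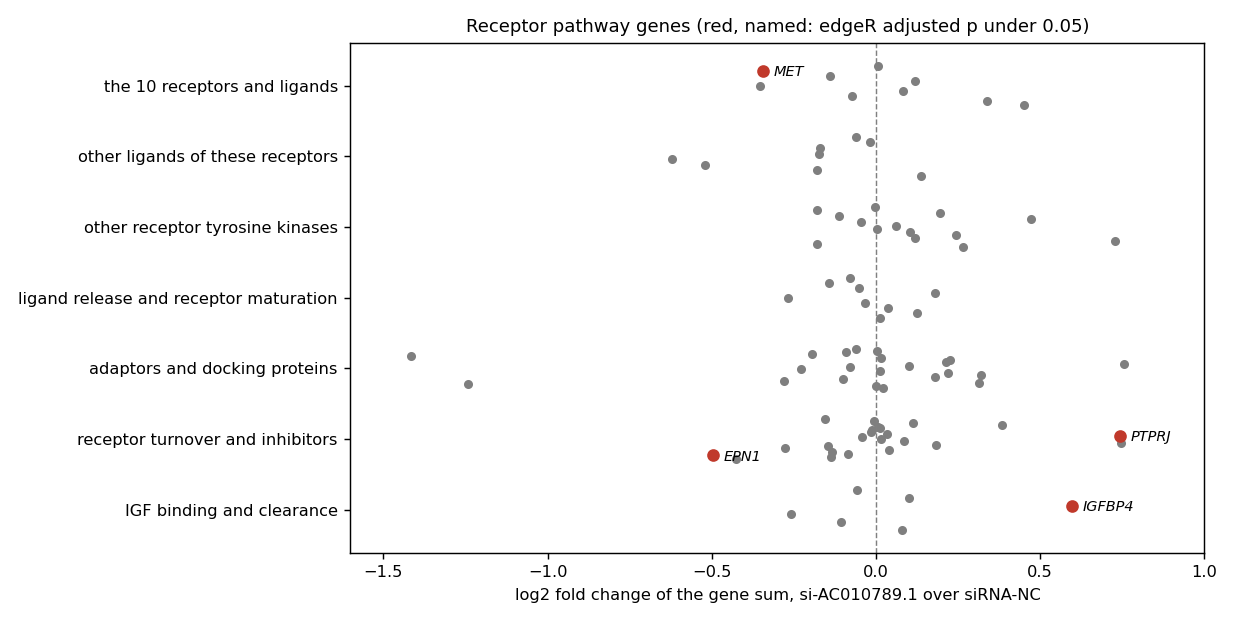
Log2 fold change of the gene sum (si-AC010789.1 over siRNA-NC) for each tested gene of the 10 receptors and ligands and of 6 further lists, 1 point per gene, in red and named where the adjusted p-value of edgeR was under 0.05. MET (-0.34) and EPN1 (-0.50) lie left of 0 and PTPRJ (0.74) and IGFBP4 (0.60) right of it.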

How the data were processed

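Total RNA of HCT116 cells was made into paired-end TruSeq libraries for the Illumina NovaSeq. The authors deposited counts: whole, unnormalized numbers per Ensembl transcript and library, from 11277222 to 13443866 in all. The submitters' processing notes list CASAVA 1.8 and TopHat2 2.0.6 and the builds mm10 and GRCh38; the study used Cuffdiff. The counting program and its treatment of shared reads are not given in the sources used here, which bears on single transcripts more than on sums.

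Identifiers of 98803 of 98886 transcripts matched GENCODE v29 (GRCh38), and counts were summed per gene; the 83 others were left out. Genes and transcripts were tested with edgeR 4.0.16 in R 4.3.3 (TMM, filterByExpr at its defaults of 10 counts and 15 in total, quasi-likelihood test, Benjamini-Hochberg over all features), and the split over transcripts with diffSpliceDGE. DESeq2 1.42.0, other scaling and filters, protein-coding transcripts alone, a replicate block and leaving out each library were the alternatives. TPM was computed from counts and annotated lengths. Scripts were tested on simulated data. Floors of 3 counts cover counting error only.

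The text names all 10 genes, their transcripts tested at a mean of at least 1 CPM or with separate groups, listed genes with an adjusted p-value under 0.05 or otherwise the 3 most abundant of a list, and ligands and close paralogs; FRS2, CBL and RHBDF2 are exceptions chosen after their values were seen. The genes, lists and tests were chosen with earlier results of these data known. Replicate numbers were not taken to pair the libraries. Matches to a microRNA seed are not reported here.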

Additional observations from a re-analysis of the deposited data

How the results depend on the processing

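The sign of the log2 fold change of MET was the same in all alternatives, but its call was not: it was lost without the filter (-0.35), with the replicate block (-0.34, adjusted p = 0.166, edgeR), with only protein-coding transcripts summed (-0.34) and with each library left out (-0.37 to -0.30). In these fits 0 of the 10 genes were called, and 1 with DESeq2, RLE scaling or a filter on a mean of 1 CPM. With only protein-coding transcripts the MET counts themselves did not change, since all its counted forms are of that type. The number of genes called was 557 with DESeq2, 69 without a filter, 56 with only protein-coding transcripts, 0 with the replicate block and 12 to 37 with a library left out, against 130. Of transcripts, 616 were called with DESeq2, 0 without a filter, 0 with the replicate block and 0 to 6 with a library left out, against 6; of those of the 10 genes, 1 with DESeq2 and 0 otherwise (0 to 0 with a library left out). A change in transcript usage was called for 172 genes by the F test, 109 by Simes, 66 with the replicate block and 280 to 316 with a library left out, and for 0 of the 10 genes, 1 by Simes and 0 to 1 with a library left out. In CPM, groups did not overlap for 4 of the 10 genes (12.9% of all genes tested were lower and 12.2% higher in this way) and for 3 with only protein-coding transcripts. With a library left out they did not overlap for 4 to 7. Smaller groups separate more easily, and no share over all genes is given for those fits, so that rise is not read as a result. The test, filter and block do not enter these counts. The sign of the log2 fold change turned for MST1R without the filter (-0.0006) and with only protein-coding transcripts (-0.14). With a library left out it ranged from -0.0296 to 0.0454 for MST1R and from -0.10 to 0.3944 for IGF1R, negative for control replicate 2 or silenced replicate 2 in both (-0.0278 and -0.0296, -0.1013 and -0.0135) and for silenced replicate 3 in IGF1R (-0.0683), in all cases without a call. The causes were not tested.

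The labels do not say that a replicate number marks a shared generation of cells, and the numbers were not taken to pair the libraries. The deviations of same-numbered libraries from their group means correlated at 0.11, 0.011 and 0.017 over genes. For unlike numbers the correlations lay between -0.090 and 0.079. Over transcripts they were 0.014, 0.011 and 0.0088 for same numbers and between -0.0087 and -0.0018 for unlike ones. Whether the numbers pair the libraries was not tested. PTPRJ, EPN1, IGFBP4 and the Simes call of MST1R (adjusted p = 0.0969, edgeR) were also lost with the block. With 3 libraries a group and a biological coefficient of variation of 0.170 for genes and 0.698 for transcripts, single transcripts needed far larger changes to be called than sums.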

Other observations

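FRS2, a docking protein of fibroblast growth factor receptors, was chosen after its values were seen. It was at 29.4, 60.8 and 63.0 CPM in siRNA-NC and at 23.7, 19.7 and 21.4 CPM in si-AC010789.1. In CPM, every silenced library was below every control, and siRNA-NC replicate 1 was nearer to the silenced libraries than to the other controls. Per length the groups overlapped, at 35.3, 25.6 and 22.7 TPM in siRNA-NC and 20.8, 25.5 and 27.5 TPM in si-AC010789.1. The fall in CPM was thus not matched in TPM. The log2 fold change was -1.24 with an adjusted p-value of 0.110 (edgeR's quasi-likelihood test), 0.0356 without siRNA-NC replicate 1 and 0.00110 with DESeq2; over all alternatives it lay between 0.00110 and 0.274.

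CBL, the ubiquitin ligase that marks MET and EGFR for degradation, was also chosen after its values were seen. Its levels were 186, 191 and 209 CPM in siRNA-NC and 140, 171 and 126 CPM in si-AC010789.1, which do not overlap. The log2 fold change was -0.42 with an adjusted p-value of 0.147 by edgeR and 0.0343 by DESeq2.

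The count table held 1528 transcripts with exactly 1 count in each of the 6 libraries, and 3 of them belong to ERBB3. In all, 1576 transcripts had the same count in every library, 4 of them from the 10 genes.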
